A study of Homo sapiens with 6 samples.

Results

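The proteasome is the protease that degrades most ubiquitin-tagged proteins of the cell, and its genes were followed here in H9 cells given the compound PA4. The genes were chosen by symbol: every gene of the deposited table named PSMA, PSMB, PSMC, PSMD, PSME, PSMF or PSMG plus a digit, leaving out hyphenated antisense names. This gave 49 genes of 26485. One of them, PSMC3IP, shares only its name with the complex: it is named for an interaction with the PSMC3 protein and is known for its part in meiotic recombination. The other 48 are subunits, activators, an inhibitor and assembly factors.

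H9 is an established human line whose cells the labels call cutaneous T lymphocytes. Of its 6 libraries of polyadenylated RNA, 3 were from cells treated with 1 µM PA4 for 24 h, and 3 were controls, which received the vehicle DMSO. The series title describes the compound under test as derived from berbamine, and the submitters asked how gene expression differed under a treatment that kills these cells. Nothing in the labels states that replicates were separate cultures, so a p-value here measures the spread between these 6 libraries, which may be technical.

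The core particle is a barrel of stacked rings. Its outer rings are built of alpha subunits (PSMA genes), which gate the entrance, and its inner rings of beta subunits (PSMB genes), of which PSMB5, PSMB6 and PSMB7 carry the proteolytic sites. In cells of the immune system, or after interferon, PSMB8, PSMB9 and PSMB10 can take the places of PSMB5, PSMB6 and PSMB7 and form the immunoproteasome, which is known for trimming peptides for display on MHC class I. The regulatory cap, made of ATPases (PSMC genes) and further subunits (PSMD genes), recognises ubiquitin, unfolds the substrate and feeds it into the barrel.

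Promoter sequence is shown first for some of the members whose start regions carry letters of a motif linked to interferon or to the proteasome stress response. RefSeq windows of GRCh38.p14, from 250 bases before to 50 after an annotated start, matched 43 of the 49 genes. PSMA7, PSMB1, PSMB6, PSMB7, PSMD4 and PSMG3 were not matched. The letters GAAA, any 2 bases and GAAA again, a simple form of the element bound by interferon regulatory factors, were searched on both strands, counting matches that overlap. They were found in the windows of 7 of 42 subunit and factor genes (16.7%), against 1195 of 27305 genes with a window (4.38%), and in 1255 of 35116 windows (3.57%). The 7 genes were PSMB8, PSMB10, PSME1, PSME2, PSMB4, PSMA4 and PSMG4, and 0 of 16 cap subunits were among them.

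In the next 4 sequences the capitals mark that motif. They are shown because the 2 immunoproteasome genes and the 2 genes of the interferon-inducible activator held the same 10 bases, GAAAGCGAAA or its complement TTTCGCTTTC, as did PSMG4. The windows were chr6:32843998-32844297 (minus strand) for PSMB8, chr16:67936801-67937100 (minus) for PSMB10, chr14:24135944-24136243 (plus) for PSME1 and chr14:24146561-24146860 (minus) for PSME2. For PSMB8 this was the window of an inner start, and its window at the outermost start held no match.
PSMB8: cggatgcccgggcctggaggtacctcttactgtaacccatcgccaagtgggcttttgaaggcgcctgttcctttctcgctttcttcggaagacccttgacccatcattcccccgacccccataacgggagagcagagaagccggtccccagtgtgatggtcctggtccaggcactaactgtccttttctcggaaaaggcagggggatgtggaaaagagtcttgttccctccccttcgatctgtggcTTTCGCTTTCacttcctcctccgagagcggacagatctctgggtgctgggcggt
PSMB10: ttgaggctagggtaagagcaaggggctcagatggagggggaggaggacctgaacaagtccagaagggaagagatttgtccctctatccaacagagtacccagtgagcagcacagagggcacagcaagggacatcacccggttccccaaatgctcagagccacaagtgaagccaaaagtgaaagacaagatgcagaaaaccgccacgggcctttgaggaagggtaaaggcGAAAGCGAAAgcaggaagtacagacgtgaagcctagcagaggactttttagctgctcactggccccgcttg
PSME1: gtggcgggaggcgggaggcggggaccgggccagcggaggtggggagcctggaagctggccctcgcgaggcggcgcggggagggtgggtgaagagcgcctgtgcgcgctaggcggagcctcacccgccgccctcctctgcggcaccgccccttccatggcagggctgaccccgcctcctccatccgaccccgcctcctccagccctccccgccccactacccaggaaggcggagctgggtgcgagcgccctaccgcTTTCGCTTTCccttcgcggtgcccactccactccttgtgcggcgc
PSME2: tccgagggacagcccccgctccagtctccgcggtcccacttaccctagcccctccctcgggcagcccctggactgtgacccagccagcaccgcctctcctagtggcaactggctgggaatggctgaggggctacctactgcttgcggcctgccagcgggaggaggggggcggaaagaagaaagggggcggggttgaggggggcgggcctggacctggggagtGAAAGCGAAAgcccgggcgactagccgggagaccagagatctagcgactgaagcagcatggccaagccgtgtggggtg

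The letters TGACNNNGC, searched in the same way, the core of the antioxidant response element through which NFE2L1 is known to act on proteasome genes, were found in 15 of 42 subunit and factor genes (35.7%), against 4384 of 27305 genes (16.1%) and 4687 of 35116 windows (13.35%). PSME1 and PSME2 held both motifs in the same window, at places that did not overlap, and PSMA4 held them in separate windows. In the following sequences the capitals mark that core. PSMB9, at chr6:32853942-32854241 (plus), is shown as the immunoproteasome gene without the interferon motif in its window. PSMD1, at chr2:231056617-231056916 (plus), is shown as the member with the lowest p-value below. Its match lies after the annotated start, from base 40, and a link between the motif and its expression was not tested. TAP1, which encodes a chain of the peptide transporter for MHC class I, faces PSMB9 on the opposite strand. Its window, chr6:32853655-32853954, overlaps that of PSMB9 and held 2 overlapping matches to the interferon motif, both outside the window of PSMB9.
PSMB9: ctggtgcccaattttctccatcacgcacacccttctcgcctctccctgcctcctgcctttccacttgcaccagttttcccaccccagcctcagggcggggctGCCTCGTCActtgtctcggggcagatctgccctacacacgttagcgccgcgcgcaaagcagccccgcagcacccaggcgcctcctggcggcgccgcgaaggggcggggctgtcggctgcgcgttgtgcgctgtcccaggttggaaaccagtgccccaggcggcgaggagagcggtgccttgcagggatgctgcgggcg
PSMD1: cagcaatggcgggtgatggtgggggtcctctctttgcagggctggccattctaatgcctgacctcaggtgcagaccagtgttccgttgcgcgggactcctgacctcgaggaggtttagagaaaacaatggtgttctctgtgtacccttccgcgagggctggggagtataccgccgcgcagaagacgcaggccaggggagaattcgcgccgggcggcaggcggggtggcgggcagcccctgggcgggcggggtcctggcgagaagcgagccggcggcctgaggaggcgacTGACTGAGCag

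Library totals ranged from 18282212 to 22875191 counts, and values below are in CPM, counts scaled by library size with edgeR's TMM factors. The proteasome genes took 0.921%, 0.915% and 0.9105% of all counts in PA4 replicates 1 to 3, against 0.918%, 0.919% and 0.8996% in control replicates 1 to 3. Markers of T cells were present, with 8 of 8 listed genes above 10 counts and sums of 15598 to 20214 counts with PA4 and 16467 to 17460 in control. CD7 was low among them, at 38 to 50 counts per library, against 1808 to 4148 for the rest. Of the defining B cell genes, PAX5 had at most 2 counts per library and MS4A1 at most 7, while CD79A and CD79B had 151 to 260. Myeloid markers summed to 6 to 17 counts with PA4 and 6 to 11 in control, fibroblast markers to 16 to 28 and 12 to 20, and markers of pluripotent stem cells, checked because a stem cell line shares the name H9, to 0 to 1 and 1 to 2. CSF1R, FCGR3A, COL1A2, DCN, NANOG, SOX2 and DPPA4 were at 0 in each library. Libraries also differed within the control group, as described below for transcript GC content.

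No proteasome gene was called as changed by PA4, and each gene's own 95% interval stayed within 1.25-fold. Like the p-values, these intervals rest on the spread between the 6 libraries, which may be technical. Of the 49 genes, 47 passed the filter on low counts, and in edgeR's quasi-likelihood test 0 of the 47 were called at an adjusted p under 0.05, where 28 of all 12107 tested genes (0.231%) were called. DESeq2 and limma-voom also called 0, each with PSMD1 as the 1 member at an unadjusted p under 0.05. At an unadjusted p under 0.05 edgeR gave 1 member, PSMD1, against 5.29% of all tested genes. The log2 fold changes, PA4 over control, lay between -0.088 and 0.080, with 30 above and 17 below 0 and a median of 0.0097, beside a median of -0.0040 over all tested genes. The 95% interval of each of the 47 lay within 1.25-fold in both directions, the widest bounds being 0.865-fold for PSMB9 and 1.14-fold for PSMG4. For all tested genes this held in 71.7%. The members were abundant, with a median of 3502 counts for their lowest library.

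**Figure D1:**
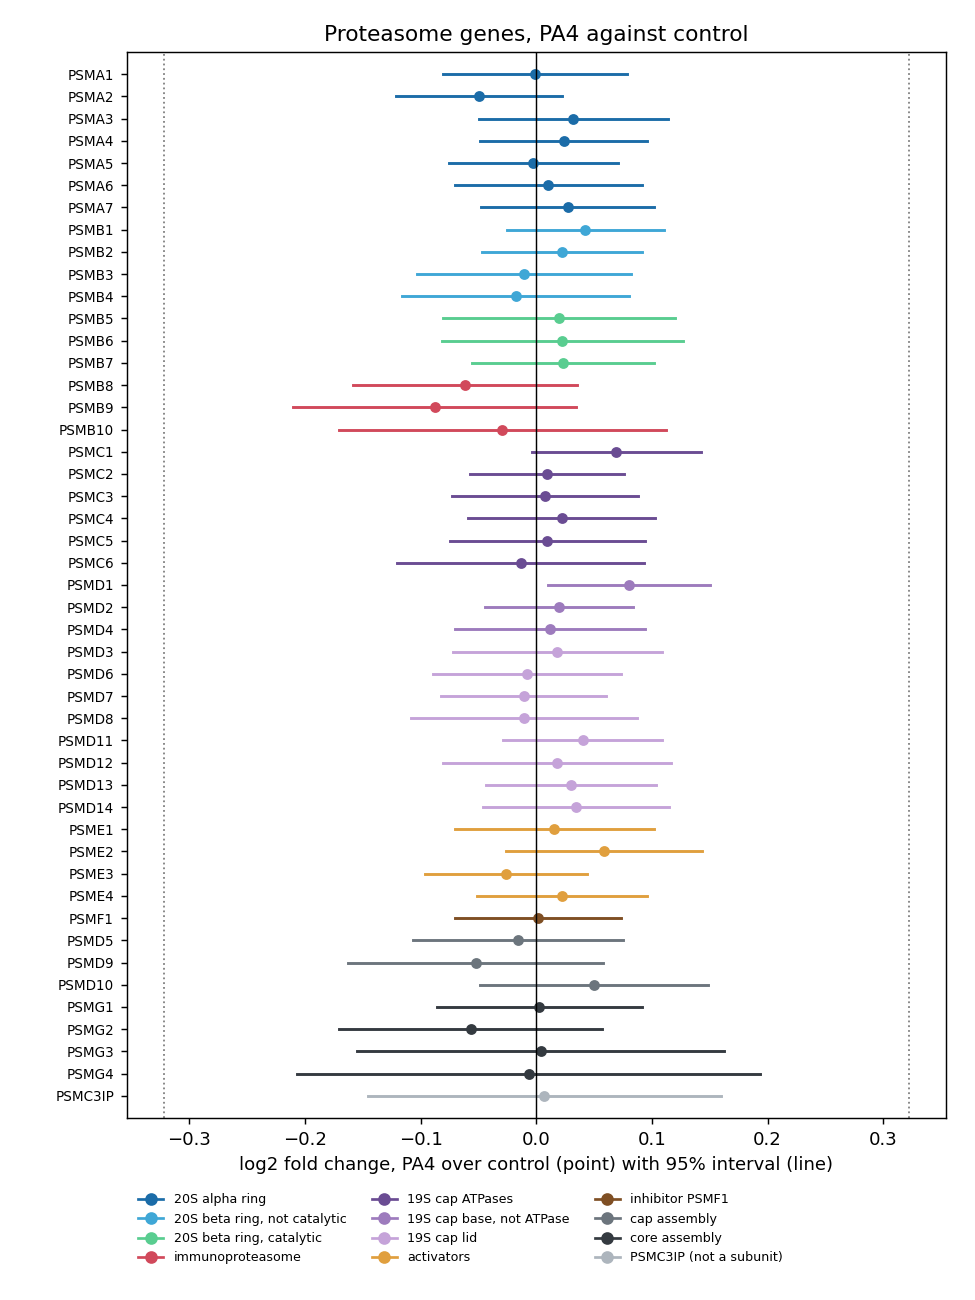
Log2 fold change of each tested proteasome gene, PA4 over control, as a point with its 95% interval from edgeR as a line, grouped and coloured by role, with dotted lines at 1.25-fold in each direction. The points lie between -0.088 and 0.080, and each interval stays between the dotted lines.

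**Figure D2:**
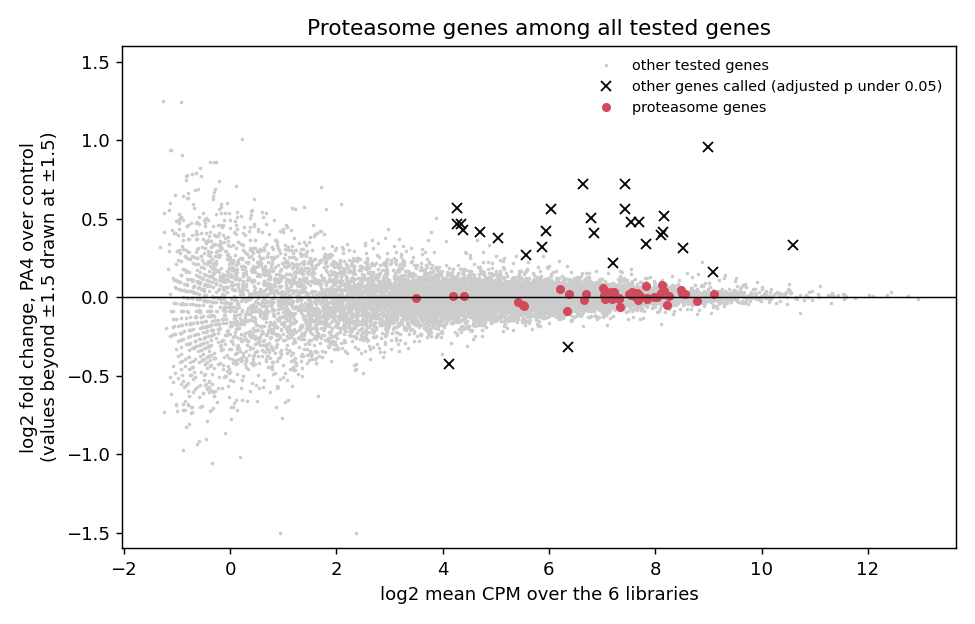
Log2 fold change, PA4 over control, against the log2 of the mean CPM for 12107 tested genes, with proteasome genes as red points and the 28 called genes as crosses. Grey points beyond the limit named on the vertical axis are drawn at that limit, and a cross beyond the axis would not show. The red points lie near 0 and none is a cross.

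In the alpha ring 4 of 7 genes lay above 0 and 3 below. PSMA4 was the most abundant of them per deposited length, a rank that rests on 1221 bases where the exon length in GENCODE release 29 is 4665. It had 363, 361 and 368 CPM in PA4 replicates 1 to 3, against 344, 360 and 371 CPM in control replicates 1 to 3. The groups overlapped, and the log2 fold change was 0.024 ± 0.034 (SE). PSMA3 had the largest value of the ring, 0.032 ± 0.039 log2 (SE), and PSMA2 the lowest, -0.049 ± 0.034 log2 (SE), with 299, 289 and 296 CPM with PA4 against 302, 315 and 298 CPM in control. PSMA5, the least abundant of the ring per length, was at -0.0026 ± 0.034 log2 (SE), a sign that turned with no low-count filter and with GC offsets. The ring's median was 0.011 log2 over 7 genes, with 0 called. In GENCODE release 29 another gene model on the same strand shares 35.7%, 52.5% and 63.9% of the exon bases of PSMA1, PSMA2 and PSMA6, and 30.7% of those of PSMB10.

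Among the beta ring genes without proteolytic sites PSMB1 had the largest value. PSMB1, the most abundant proteasome gene per length, had 366, 364 and 364 CPM with PA4, against 350, 365 and 348 CPM in control. Control replicate 2 stood with the PA4 libraries, so the groups overlapped, and the log2 fold change was 0.042 ± 0.032 (SE). PSMB4, which held the interferon motif, was at -0.018 ± 0.046 log2 (SE), PSMB3 at -0.0105 ± 0.044, and PSMB2, the least abundant per length of these 4, at 0.022 ± 0.033.

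The constitutive proteolytic subunits did not separate the groups either. PSMB5, which carries the chymotrypsin-like site blocked by clinical proteasome inhibitors, had 85.7, 85.05 and 81.2 CPM with PA4, against 86.0, 83.9 and 78.7 CPM in control. PSMB6, with the caspase-like site, had 104.5, 102.9 and 105.3 CPM with PA4, against 110.4, 101.2 and 96.1 CPM in control. PSMB7, with the trypsin-like site, had 207.4, 200.5 and 201.7 CPM with PA4, against 207.3, 198.3 and 194.04 CPM in control. Each gene's groups overlapped, and the log2 fold changes were 0.020 ± 0.047, 0.022 ± 0.049 and 0.023 ± 0.037 (SE) in that order, with adjusted p-values of 0.997, 0.997 and 0.993 from edgeR.

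The 3 immunoproteasome genes were the proteolytic subunits with values below 0, but none was called. PSMB8, on chromosome 6 at 32840717 to 32844679 of GRCh38, had 163.9, 158.3 and 154.3 CPM with PA4, against 176.6, 165.1 and 155.7 CPM in control. PSMB9, on chromosome 6 at 32854192 to 32859851, had 78.7, 82.02 and 74.7 CPM with PA4, against 90.9, 82.5 and 77.1 CPM in control. PSMB10, on chromosome 16 at 67934506 to 67936850, had 42.7, 44.4 and 40.3 CPM with PA4, against 47.2, 43.7 and 39.4 CPM in control. In each gene control replicate 1 was the highest of the 6 libraries and the groups overlapped. The log2 fold changes were -0.062 ± 0.046 for PSMB8, -0.088 ± 0.058 for PSMB9 and -0.029 ± 0.067 for PSMB10 (SE), with edgeR adjusted p-values of 0.991, 0.988 and 0.997.

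The size of these values depended on which control library was kept. Without control replicate 1 they were -0.014, -0.022 and 0.035 log2 for PSMB8, PSMB9 and PSMB10, and without control replicate 3 they were -0.105, -0.141 and -0.094 log2. In the second case PSMB8 and PSMB9 had unadjusted p-values of 0.0184 and 0.0128 in edgeR, with adjusted p-values of 0.424 and 0.385. Over the alternatives the adjusted p ranged from 0.424 to 1 for PSMB8 and from 0.369 to 1 for PSMB9. In bulk RNA, fewer cells that express a gene and less of its RNA per cell cannot be told apart.

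**Figure D3:**
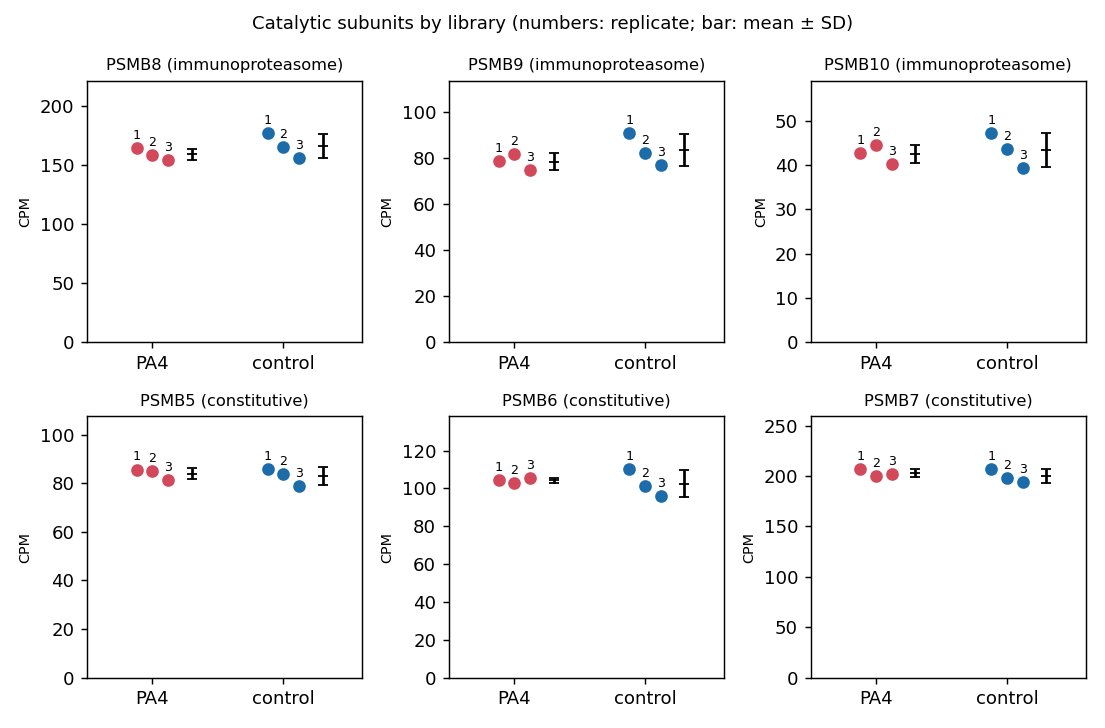
CPM of the 3 immunoproteasome genes (upper row) and their constitutive counterparts (lower row) in each library, with PA4 in red, control in blue, replicate numbers above the points and the mean ± SD (n = 3) as a bar. Control replicate 1 is the highest point of each immunoproteasome panel, and PA4 and control overlap in each panel.

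Taken per length, each immunoproteasome gene was set against its constitutive counterpart within a library, which is a ratio of levels. PSMB8 stood at 1.80, 1.75 and 1.78 times the level of PSMB5 in PA4 replicates 1 to 3, against 1.93, 1.85 and 1.86 times in control replicates 1 to 3. PSMB9 stood at 0.713, 0.755 and 0.672 times the level of PSMB6 with PA4, against 0.779, 0.771 and 0.760 times in control. For both pairs the PA4 libraries lay below the control libraries without overlap, and the differences were -0.080 and -0.11 log2. How often other pairs of genes would separate in this way is not given here. Both pairs rest on the same 6 libraries, and the nearest values of the second pair were 0.755 and 0.760. Leaving out 1 library at a time gave -0.092 to -0.061 and -0.15 to -0.070 log2. The exact two-sided permutation p was 0.10 for each, the smallest that 3 against 3 libraries allow, and 0.15 when adjusted over the 3 pairs. PSMB10 stood at 0.208, 0.224 and 0.202 times the level of PSMB7 with PA4, against 0.2296, 0.222 and 0.205 times in control, with overlap, a difference of -0.052 log2 and an exact permutation p of 0.50.

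Levels within these ratios rest on the gene lengths used. The deposited length was 14174 bases for PSMB8 and 8377 for PSMB9, which is 9.15 and 9.096 times their exon length in GENCODE release 29, and 1592 bases for PSMB3, which is 2.06 times. For these 3 genes the GENCODE length was used. For the other tested members the deposited length was 0.179 times (PSMG4) to 1.28 times (PSMC3IP) the GENCODE exon length, which covers more transcripts. How the authors' counting treated reads of such genes is not given in the sources used here, so their levels against other genes are uncertain, while PA4 and control were counted in the same way. PSMB8-AS1, an antisense transcript with 291 to 363 counts per library, shares 8.65% of the exon bases of PSMB8 and 15.1% of those of PSMB9 in GENCODE, and the strand setting of the counting is not given in the sources used here.

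The 17 cap genes had a median of 0.018 log2, with 13 values above 0, 4 below and 0 called. PSMD1, the large scaffold subunit of the cap's base, lies on chromosome 2 at 231056867 to 231172827 of GRCh38 and had the lowest p-value of the members. It had 281.9, 287.7 and 290.4 CPM with PA4, against 265.3, 273.4 and 274.9 CPM in control, so the 3 PA4 libraries were the highest. The log2 fold change was 0.080 ± 0.033 (SE), or 1.06-fold, with an unadjusted p of 0.0280 and an adjusted p of 0.879 in edgeR. Offsets for GC content, chosen after the data were seen, gave 0.087 log2 and an adjusted p of 0.0860, and with the replicate number as a block as well an adjusted p of 0.0618, within a range of 0.0618 to 1 over the alternatives.

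PSMC1, an ATPase of the cap, had 237.4, 233.2 and 230.4 CPM with PA4, against 218.09, 222.4 and 227.8 CPM in control, again without overlap. Its log2 fold change was 0.069 ± 0.035 (SE), with an adjusted p of 0.961 in edgeR. In GENCODE release 29, 82.1% of the exon bases of PSMC1 are shared with NRDE2 on the opposite strand, in a gene model of 4448 bases against 1586 in the deposited table. PSMD11, a lid subunit, was the third cap gene whose groups did not overlap, at 0.040 ± 0.032 log2 (SE). These 3 were the only members of the 47 whose groups did not overlap, all with PA4 higher, or 6.38% against 5.91% of all tested genes with PA4 higher, a share near the background. With PA4 lower there were 0 members, against 5.31% of all tested genes.

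The other cap genes named by rule were PSMC6, the ATPase with the lowest value, at -0.013 ± 0.050 log2 (SE), PSMD2, the scaffold partner of PSMD1, at 0.020 ± 0.030, PSMD4, a ubiquitin receptor, at 0.012 ± 0.039, and PSMD7, a lid subunit that pairs with the deubiquitinase PSMD14, at -0.011 ± 0.034. PSMD2, the most abundant cap gene per length, had 563, 559 and 549 CPM with PA4 against 564, 544 and 540 CPM in control. PSMC6 had 130.9, 132.4 and 133.8 CPM with PA4, against 122.5, 133.9 and 144.4 CPM in control, so that the PA4 libraries lay between the control libraries.

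Activators dock on the barrel in place of the cap. PSME1 and PSME2 encode the partner chains of the interferon-inducible activator PA28, and both hold the interferon motif shown above. PSME1 had 133.5, 134.3 and 128.6 CPM with PA4, against 132.4, 133.7 and 126.1 CPM in control. PSME2 had 127.4, 135.5 and 134.8 CPM with PA4, against 127.1, 128.6 and 126.4 CPM in control. Their log2 fold changes were 0.016 ± 0.040 and 0.058 ± 0.040 (SE), above 0, where PSMB8, PSMB9 and PSMB10 lay below. The sign of PSME1 turned without control replicate 3. That of PSMB10 turned without control replicate 1 and without PA4 replicate 3, so no contrast of signs was drawn. PSME3, the nuclear PA28 chain, was at -0.026 ± 0.033 log2 (SE) and PSME4, the nuclear activator PA200, at 0.022 ± 0.035. The inhibitor gene PSMF1 was at 0.0013 ± 0.034 log2 (SE), a value whose sign turned with library size alone as the scaling.

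Assembly factors had the lowest median level of the roles, 28.99 CPM per kilobase of gene length. PSMG1 and PSMG2, which pair to start the alpha ring, were at 0.0026 ± 0.042 and -0.057 ± 0.054 log2 (SE), and PSMG3 and PSMG4, which pair to complete it, at 0.0037 ± 0.075 and -0.0066 ± 0.094. PSMG2 had 47.1, 43.9 and 44.7 CPM with PA4, against 45.8, 48.1 and 47.1 CPM in control, with overlap. The signs of PSMG1 and PSMG3 turned with library size alone and that of PSMG4 with GC offsets and the block together. Among the chaperones of the cap's base, PSMD10, also called gankyrin, was at 0.050 ± 0.047 log2 (SE) PSMD9 at -0.052 ± 0.052 and PSMD5 at -0.016 ± 0.043. Over 7 assembly factors the median was -0.0066 log2, with 3 values above 0, 4 below and 0 called. PSMC3IP, outside the complex, was at 0.0071 ± 0.072 log2 (SE), and 49.9% of its exon bases are shared with MLX on the opposite strand.

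The 2 members that did not pass the filter are known from other tissues. PSMA8, the alpha subunit of the testis, had 0 or 1 count per library, and PSMB11, the beta subunit of epithelial cells in the thymus cortex, had 0 counts in all 6 libraries. A count of 0 allows up to 3 counts, or 0.132 to 0.164 CPM with PA4 and 0.155 to 0.158 CPM in control, for counting error only, since the reads carry no molecular identifiers that the labels mention. No fold change was computed for either gene.

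Across members, levels per length spanned a wide range. Expressed as CPM per kilobase, PSMB1 stood highest at 398 with PA4 and 386 in control, and PSMG4 lowest among subunits and factors at 10.8 in both groups. Within the constitutive core the most abundant gene was 6.83 times the least abundant, PSMB1 against PSMB5. Within the cap the span was 2.45 times, between PSMD2 at 176 CPM per kilobase with PA4 and 173.6 in control and PSMD11 at 72.2 and 70.3. PSMB8 stood at 102.5 CPM per kilobase with PA4 and 107.04 in control, PSMB9 at 85.2 and 90.6, and PSMB10 at 42.2 and 43.1. PSMG1 stood apart from the other assembly factors, at 116.8 CPM per kilobase with PA4 and 116.6 in control, against at most 47.5 with PA4 and 45.9 in control for the rest. These are descriptions of levels, with no test between genes, and other gene lengths could change the ranks and spans.

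**Figure D4:**
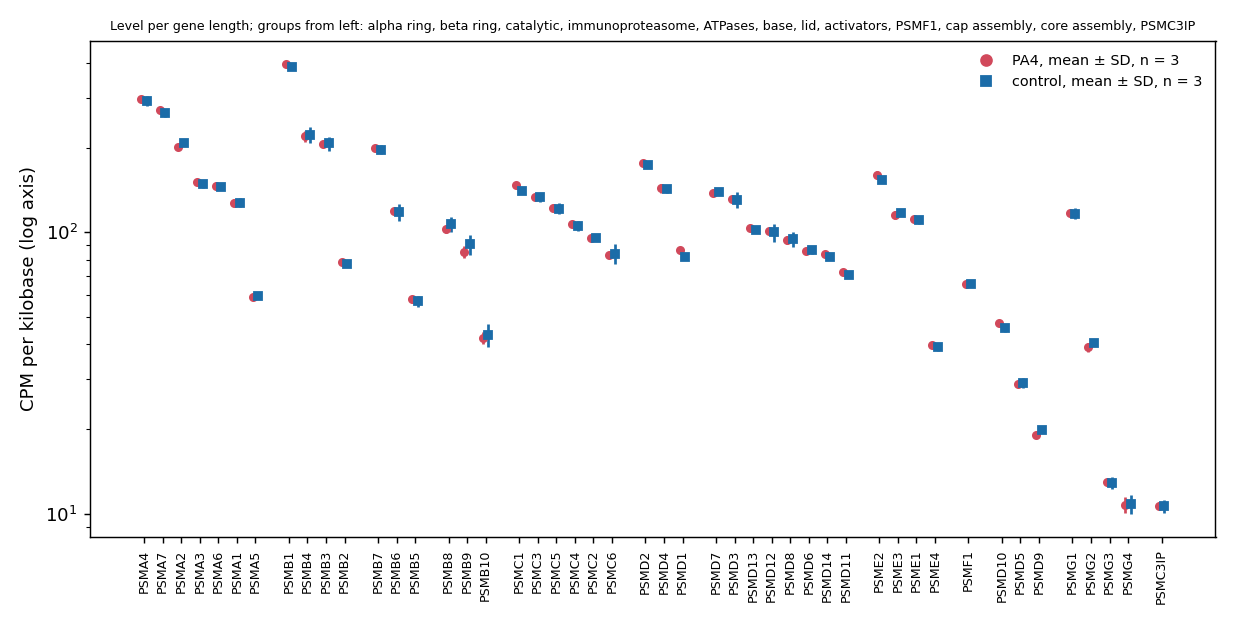
Level of each tested proteasome gene in CPM per kilobase of gene length on a log axis, as mean ± SD over 3 libraries, with PA4 as red circles left of control as blue squares, grouped by role and sorted within it. The core spans 6.83 times and the cap 2.45 times, and PA4 and control lie side by side for each gene.

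Control replicates 1 and 3 were the most different of all pairs of libraries (chi-square over its degrees of freedom 6.81, for genes with 20 or more counts). On the log2 scale, the ratio of the first to the third control library was above 0 for 28 members and below 0 for 19. It reached 0.26 for PSMB10, 0.24 for PSMB9 and 0.20 for PSMB6, and it was -0.24 for PSMC6 and -0.21 for PSMD12. Across the 47 genes this ratio rose with transcript GC content, with a Pearson r of 0.81 and a Spearman rho of 0.83, beside a rho of 0.65 over 11701 tested genes. The points share the same 2 libraries and genes are not independent, so these are descriptions. The immunoproteasome genes were among those of higher GC content, at 54.9% for PSMB8, 53.9% for PSMB9 and 61.9% for PSMB10, against a member median of 48.7%. For the PA4 comparison the same measure was -0.21 (Pearson) and -0.19 (Spearman). With GC offsets PSMB8, PSMB9 and PSMB10 stood at -0.052, -0.078 and -0.0055 log2, with adjusted p-values of 0.556, 0.481 and 0.985 in edgeR.

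**Figure D5:**
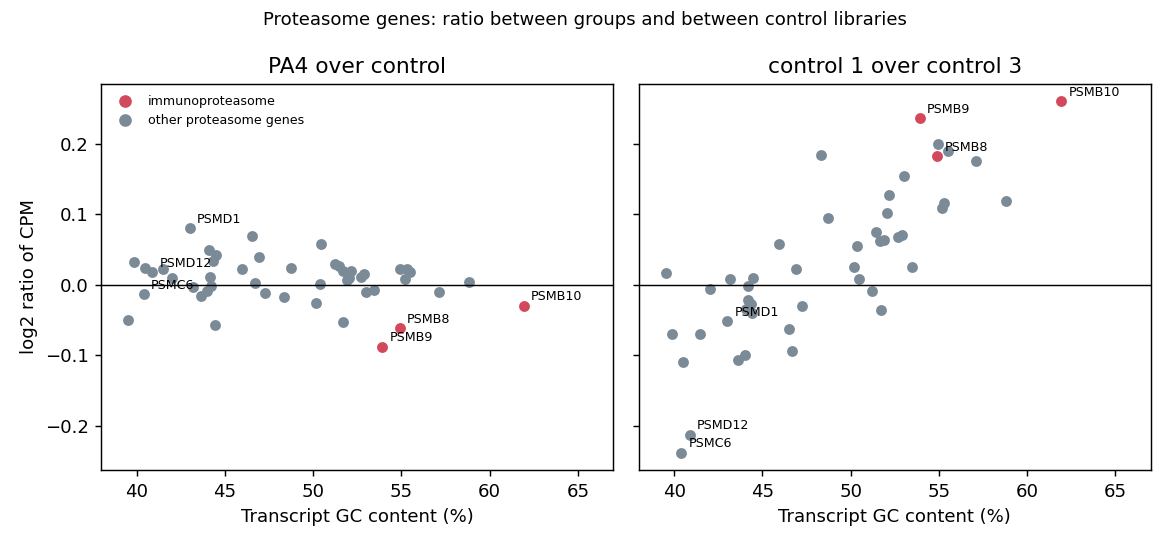
Log2 ratio of CPM for each tested proteasome gene against its transcript GC content in percent, for PA4 over control on the left and control replicate 1 over control replicate 3 on the right, with immunoproteasome genes in red. The left panel, a ratio of groups of 3, lies between -0.088 and 0.080, and the right panel, a ratio of 2 single libraries and so more variable by construction, runs from -0.24 for PSMC6 to 0.26 for PSMB10.

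Genes around the proteasome, 43 tested in 5 lists, gave 0 calls in the reported edgeR fit. Their lowest adjusted p there was 0.261, for a gene not reported by name. In other edgeR settings list genes were called: 2 with GC offsets, 3 with GC offsets and the block, and 1 without control replicate 1. At an unadjusted p under 0.05 there were 3 genes, among them NFE2L1, beside 5.29% of all tested genes, and the 95% intervals of the 43 each lay within 1.25-fold. DDI2, the protease that activates NFE2L1, stands in 2 of the lists. ADRM1, a ubiquitin receptor of the cap, was at -0.026 ± 0.071 log2 (SE), a sign that turned with GC offsets. The cap's deubiquitinases USP14 and UCHL5 were at 0.022 ± 0.044 and -0.032 ± 0.046, and POMP, which matures the core, at 0.015 ± 0.044. VCP, the unfoldase that hands substrates to the proteasome, was at 0.040 ± 0.032. The median was -0.016 log2 over 10 partner genes and -0.0033 over 17 shuttle and VCP-linked genes.

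NFE2L1, the transcription factor that raises proteasome genes when the protease is blocked, had 174.9, 175.3 and 161.4 CPM with PA4, against 167.2, 157.01 and 148.7 CPM in control. The groups overlapped, and the log2 fold change was 0.114 ± 0.047 (SE), with an unadjusted p of 0.0268 and an adjusted p of 0.876 in edgeR. With GC offsets NFE2L1 was called, at 0.12 log2 and an adjusted p of 0.0289, and across the 14 alternatives its adjusted p ranged from 0.0110 to 1.

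TAP1 was at -0.035 ± 0.041 log2 (SE), and the 5 tested genes of peptide transport and trimming had a median of -0.030 log2 with 0 called.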

How the data were processed

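The authors deposited raw counts of reads per gene, 1 column per library, with no normalization and no pooling, and a length in bases for each gene, per the file headers. Trimmomatic 0.39, fastp 0.23.2, STAR 2.7.9a and featureCounts of Subread 1.6.4 were used on hg38 (GRCh38), per the submitters' processing notes. Annotation, strand setting and treatment of multi-mapping reads: not given in the sources used here.

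PA4 was compared with control by edgeR 4.0.16 in R 4.3.3 (filterByExpr, TMM, glmQLFit, glmQLFTest, two-sided, no covariate), with Benjamini-Hochberg adjustment over 12107 genes. Errors are SE from the F statistic. CPM use the TMM-scaled library size, and levels are CPM per kilobase of deposited length, or of GENCODE exon length for PSMB3, PSMB8 and PSMB9. DESeq2 1.42.0, limma 3.58.1 and other settings were alternatives. The fit was tested on simulated data, drawn with its own dispersions and with no GC effect between libraries. That test therefore cannot speak to the GC differences described above, and no result here rests on it. GC content is the median over GENCODE release 29 transcripts and was known for 96.6% of tested genes. Gene positions and promoters are from RefSeq. Members, lists and the rule for named genes were chosen with earlier results of these data known. The rule took all proteolytic, activator, inhibitor and core assembly genes, the extremes of each other role, members and pathway genes at an unadjusted p under 0.05, members under the count filter, and VCP, NFE2L1, POMP, ADRM1, USP14, UCHL5 and TAP1. PSMA1, PSMA6, PSMB3, PSMC3IP, PSMD5, PSMD12 and DDI2 lie outside it and were named after their values were seen. A few genes of the lists are not reported by name. Library pairs differed by 1.48 to 6.81 in chi-square per degree of freedom over genes with 20 or more counts, so none was treated as a copy.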

Additional observations from a re-analysis of the deposited data

How the results depend on the processing

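The count of 0 called members held under each of the 14 alternatives, and the lowest adjusted p of a member was 0.0618. Of all tested genes, 28 were called, against 62 with no low-count filter, 59 with the replicate block, 133 with GC offsets, 170 with both, and 17 to 74 without 1 library, namely 18 without PA4 replicate 1, 17 without control replicate 2 and 74 without control replicate 1. The labels do not say whether equal replicate numbers pair the libraries, and the reported fit took no pairing. Correlations of deviations from the group means were 0.16, -0.088 and 0.42 for equal numbers, against -0.42 to 0.33 for unequal ones. These values cannot settle whether libraries were paired. Of 560 alternative log2 fold changes of named genes, 513 kept sign and side of the threshold, 41 had the opposite sign and 6 gained a call. Each gene that turned sign lay within 1 SE of 0 in the reported fit. The opposite signs were -0.0048 for PSMF1, -0.0035 for PSMG1 and -0.0024 for PSMG3 with library size alone, 0.0010 for PSMA5 with no low-count filter, 0.0036 for PSMA5 and 0.0066 for ADRM1 with GC offsets, and 0.0034 for PSMA5, 0.0051 for PSMG4 and 0.0067 for ADRM1 with GC offsets and the block. Leaving out 1 library at a time gave ranges of -0.12 to 0.076 for ADRM1, -0.036 to 0.051 for POMP, -0.0054 to 0.050 for PSMA4, -0.017 to 0.011 for PSMA5, -0.094 to 0.035 for PSMB10, -0.063 to 0.028 for PSMB4 and -0.016 to 0.047 for PSMB5. It gave -0.022 to 0.078 for PSMB6, -0.073 to 0.047 for PSMC6, -0.011 to 0.038 for PSMD4, -0.0093 to 0.036 for PSME1, -0.046 to 0.0031 for PSME3, -0.011 to 0.016 for PSMF1 and -0.034 to 0.031 for PSMG1. For the others it gave -0.022 to 0.047 for PSMG3, -0.069 to 0.050 for PSMG4, -0.081 to 0.013 for TAP1, -0.067 to 0.018 for UCHL5 and -0.030 to 0.056 for USP14. In the same fits the median was 0.0093 to 0.025 for the cap and -0.0051 to 0.026 for the constitutive core. The cause of these shifts was not tested. Depth limits mainly PSMG3, PSMG4 and PSMC3IP, whose intervals were the widest with 197 to 467 counts per library.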
